A study of Mus musculus with 4 samples.

Results

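The nuclear genes for the subunits of the mitochondrial respiratory chain were examined complex by complex in splenic B cells with and without NSD1. Members were taken by symbol from the deposited gene counts, as the Nduf, Sdh, Uqcr, Cyc1, Cox and Atp5 families, with symbols ending in -ps left out. This gave 86 of the 55401 listed genes under 85 different symbols, since Atp5o is listed on 2 rows. Complex I had 36 members, complex II 4, complex III 9, complex IV 19 and complex V 18.

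Complex I takes electrons from NADH and complex II takes them from succinate. Both pass them through coenzyme Q to complex III, from there through cytochrome c to complex IV, and on to oxygen. Complexes I, III and IV pump protons out of the matrix, and complex V, the ATP synthase, makes ATP as the protons flow back. Most subunits are encoded in the nucleus and imported, a small core is encoded by mitochondrial DNA, and complex II is wholly nuclear. In B cells the chain is known for supporting activation and growth after antigen encounter.

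RNA was sequenced from B220+ cells sorted from the spleens of C57BL/6J mice. NSD1B WT mice were Mb1-Cre+ NSD1+/+ (2 libraries) and NSD1B KO mice were Mb1-Cre+ NSD1fl/fl (2 libraries), so both genotypes carried the Mb1-Cre transgene, which deletes floxed alleles in the B lineage from its early stages. NSD1 is a histone methyltransferase. The study's methods describe young adult mice of both sexes, with no age given for each library. Nothing in the sources says whether the 2 libraries of a genotype came from separate mice, so the p-values measure only the spread between libraries.

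The libraries held between 6769118 and 7566834 counts on genes. Nsd1 had 497 and 480 counts in NSD1B WT against 284 and 280 in NSD1B KO, a log2 fold change of -0.74 ± 0.11 (SE), and was lower in both NSD1B KO libraries; the counts are per gene and do not isolate a floxed exon. Between the genotypes 9119 of 11657 genes tested (78.2%) passed the call used throughout, an adjusted p below 0.05 with a fold change above 1.2 in edgeR's quasi-likelihood test, and 2203 tested genes (18.9%) had no count in either library of 1 genotype. Of 8 B cell markers all were detected and 6 were lower in NSD1B KO. Their sum was 12709 to 12936 CPM in NSD1B WT and 11202 to 12210 in NSD1B KO. CPM are counts per 1000000 counts of a library, scaled by TMM. Much of that sum was Cd79b, which was not called (mean of 6825 CPM in NSD1B WT and 8159 in NSD1B KO). Of the 6 lower, Pax5 fell from a mean of 42.9 to 4.39 CPM and Cd79a from 1988 to 789, and the rest fell less. Summed erythroid markers ran from 35.6 to 39.6 CPM in NSD1B WT and from 1690 to 1944 in NSD1B KO, where all 5 tested were higher. Summed myeloid markers ran from 4745 to 4855 CPM in NSD1B WT and from 6005 to 6359 in NSD1B KO, with 6 of 9 higher and 3 lower. Most of the myeloid sum was Lyz2 (mean of 4492 CPM in NSD1B WT and 5717 in NSD1B KO). The part of these other cell types in the results on the respiratory chain was not tested, and fewer cells of a type and less RNA per cell cannot be told apart in such samples.

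Respiratory chain subunits moved in both directions within every complex. After TMM scaling, their summed level had a ratio of 1.001 between NSD1B KO and NSD1B WT. Of 86 members, 80 were tested and 6 had no count in any library. In NSD1B KO, 25 of the 80 were higher, beside 37.1% of all genes tested, 22 were lower, beside 41.1%, and 33 passed in neither direction. Together 47 members passed (58.8%), beside 78.2% of all genes. The 2 genotypes did not overlap for 68 members (85%), beside 88.1% of all genes. The median log2 fold change of the members was 0.01, and that of all genes was -0.10. The median size of the change, whatever its direction, was 0.34 for members and 1.16 for all genes, while the 2 libraries of a genotype differed by a median of 0.09 in NSD1B WT and 0.08 in NSD1B KO over the members. A change of more than 2-fold was seen for 8 members, and for 54.3% of all genes. The plot of log2 fold changes by complex shows most subunits close to 0 and a few far from it in complexes I, IV and V.

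The split between higher and lower members depended on the scaling of the libraries. It was 25 higher and 22 lower with TMM factors (53.2% of the called members higher), 18 and 31 with library size alone (36.7%), 23 and 27 with upper quartile scaling (46%), and 33 and 15 once the trend of the fold change with exon length and GC content was taken out (68.8%), called the length and GC correction below. That correction moved the median of all genes by 0.12 on the log2 scale. For some members near the fold limit, the settings that changed the call are therefore given below. Other members near the limit also changed call and are not listed.

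The summed level of each complex was compared first, after TMM scaling only. Nuclear complex I subunits summed to 11681 and 11087 CPM in the NSD1B WT libraries and to 11276 and 11363 CPM in the NSD1B KO libraries, a ratio of NSD1B KO to NSD1B WT of 0.994. The NSD1B KO libraries lay between the NSD1B WT libraries. Complex II summed to 1058 and 1047 CPM in NSD1B WT and to 952 and 882 CPM in NSD1B KO, a ratio of 0.871. Both NSD1B KO libraries lay below both NSD1B WT libraries here. The ratio was 0.990 for complex III, 1.01 for complex IV and 1.04 for complex V, and 1.001 for all members. With 2 libraries in each genotype an exact two-sided permutation test cannot go below p = 0.333, so no test was made on these sums. With TMM scaling, the bar plot of the summed levels shows complex II as the only nuclear complex with both NSD1B KO libraries below both NSD1B WT libraries. The sums were not compared under the other scalings, which move them and may change this order.

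**Figure D1:**
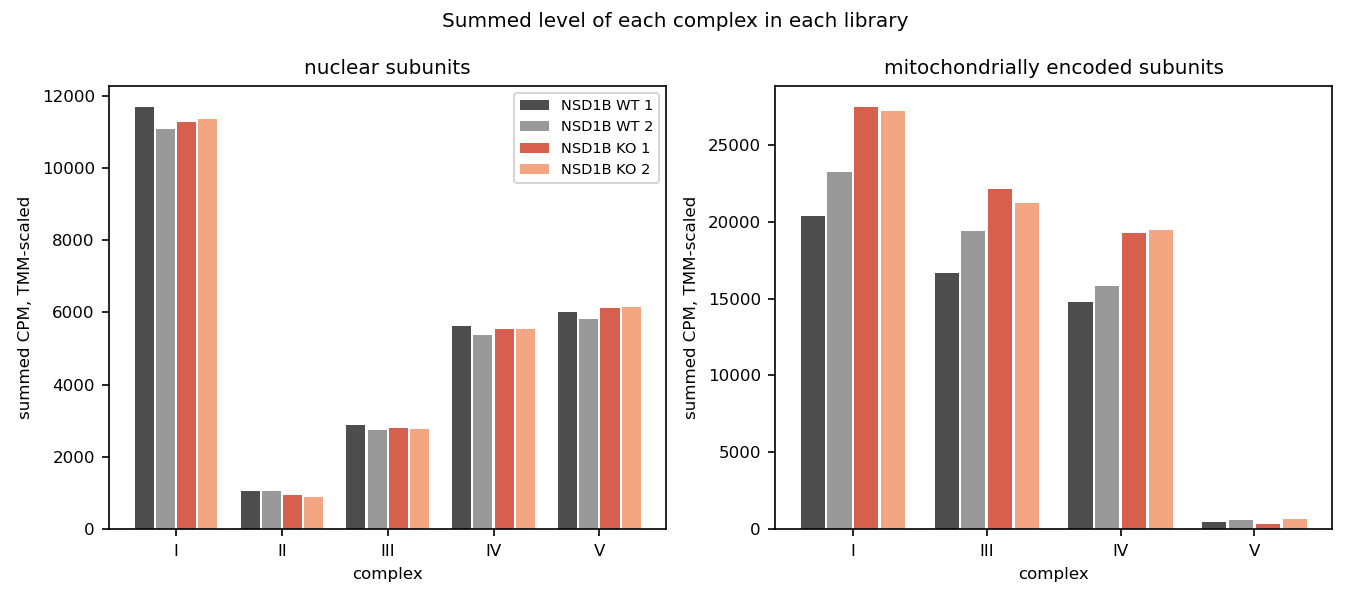
Bars give the summed CPM of each complex in each of the 4 libraries, scaled by TMM, for the nuclear subunits on the left and the mitochondrially encoded subunits on the right; complex II has no mitochondrially encoded subunit. Nuclear complex II was at 1058 and 1047 CPM in NSD1B WT and at 952 and 882 CPM in NSD1B KO.

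The 4 subunits of complex II, succinate dehydrogenase, all passed the call, beside 78.2% of all genes, and they did not move together. Sdha, the flavoprotein that oxidises succinate, lies at chr13:74322254-74350280 on the minus strand (mm10) and had 1089 and 1170 counts in NSD1B WT against 697 and 623 in NSD1B KO. Both NSD1B KO libraries were below both NSD1B WT libraries, and the log2 fold change was -0.72 ± 0.09 (adjusted p = 5.61e-10, edgeR's quasi-likelihood test). Sdhb, which carries the iron-sulfur clusters, had 4963 and 5021 counts against 4053 and 3560 and fell by 0.34 on the log2 scale; after the length and GC correction the value was -0.04 and the call was lost. Sdhc, a membrane anchor, had 418 and 384 counts against 300 and 249, a log2 fold change of -0.49 ± 0.12. Sdhd, the other membrane anchor, at chr9:50596357-50603812 on the minus strand, was the only complex II member that was higher, under all settings tried. Its counts were 1093 and 1080 in NSD1B WT and 1803 and 1502 in NSD1B KO, a log2 fold change of 0.66 ± 0.08 (adjusted p = 1.43e-09, edgeR's quasi-likelihood test). The 2 anchors, which form a dimer in the membrane, thus changed in opposite directions. Neither overlapped between the genotypes, which also held for 88.1% of all genes tested. Per kb of exon, Sdhb had the highest level of the complex (308 CPM per kb in NSD1B WT, 244 in NSD1B KO), then Sdhd (122 and 192), Sdha (37.9 and 23.0) and Sdhc (17.1 and 12.1).

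Promoter sequences are shown for Sdha and Sdhd because these subunits of the same complex moved in opposite directions while both promoters held the same motif. The stretches run 5′ to 3′ on the gene's strand (RefSeq, GRCm38.p6), from 120 to 41 bases before the annotated start of Sdha, chr13:74350281-74350360, and from 120 to 21 bases before that of Sdhd, chr9:50603870-50603969. Capitals mark matches to the NRF1 motif (GCGCA, any base, GCGC) and, in Sdhd, to the ETS motif (CCGGAAG) read on the other strand. NRF1 and the ETS factor GABP are known activators of respiratory chain genes.
Sdha: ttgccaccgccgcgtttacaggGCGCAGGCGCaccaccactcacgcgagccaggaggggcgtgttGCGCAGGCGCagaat
Sdhd: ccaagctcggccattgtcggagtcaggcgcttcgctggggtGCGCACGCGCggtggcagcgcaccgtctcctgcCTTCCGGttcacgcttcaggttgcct
Sdha has 2 NRF1 matches in the stretch shown and Sdhd has 1, with 1 ETS match nearer to the start.

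Across the members, motif matches were frequent and were found on both sides of the comparison. RefSeq promoters, 250 bases before to 50 bases after the start, were found for 68 of the 85 symbols. The NRF1 motif, searched on both strands, occurred in 17 of 68 (25%), and in 5.19% of 27025 promoters of all genes. The ETS motif also occurred in 17 of 68 (25%), beside 9.93% of all promoters, and the YY1 motif (AAGATGGCG) in 7 of 68 (10.3%), beside 1.64%. At least 1 of the 3 motifs was present in 35 of 68 members (51.5%), beside 15.1% of all promoters; each motif was searched separately and a promoter may hold several. NRF1 matches were in 7 of 23 promoters of higher members, 6 of 18 of lower members and 4 of 25 of members that passed in neither direction. In the same order, ETS matches were in 7 of 23, 2 of 18 and 8 of 25, and YY1 matches in 3, 2 and 2. By complex NRF1 matches were in 7 of 32 for complex I, 2 of 3 for complex II, 1 of 5 for complex III, 1 of 13 for complex IV and 6 of 15 for complex V. A match describes the letters of the window only.

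All 36 members of complex I were tested, of which 12 were higher, 8 lower and 16 neither. Of all genes tested, 37.1% were higher and 41.1% lower. The median log2 fold change of the complex was 0.05. Among the 7 core subunits, which hold the flavin and the iron-sulfur clusters, 1 was higher, 2 were lower and 4 were neither. Ndufv1, the subunit that binds NADH and the flavin, showed the largest increase of the complex. It lies at chr19:4007384-4012806 on the minus strand and had 61 and 40 counts in NSD1B WT against 282 and 296 in NSD1B KO. The NSD1B KO libraries were several times above both NSD1B WT libraries, with a log2 fold change of 2.57 ± 0.19 (adjusted p = 5.20e-17, edgeR's quasi-likelihood test) and values from 2.31 to 2.95 when 1 library was left out. Ndufs1, the iron-sulfur subunit next to Ndufv1 in the same module, changed in the opposite direction. It lies at chr1:63143596-63176833 on the minus strand and had 307 and 299 counts against 77 and 115. Both NSD1B KO libraries were far below the NSD1B WT libraries, and the log2 fold change was -1.60 ± 0.17 (adjusted p = 5.80e-12, edgeR's quasi-likelihood test). Exons of Ndufs1 share 498 bases with genes on the opposite strand, mostly Ino80dos, and the strand setting of the counting is not given in the sources used here. Ndufs7, which carries the last iron-sulfur cluster before coenzyme Q, had 2704 and 2546 counts against 1496 and 1343, a log2 fold change of -0.83 ± 0.08 that stayed called at -0.28 after the length and GC correction. Ndufs3 was at 0.14, Ndufs8 at -0.003 and Ndufv2 at 0.09, and none of these core subunits passed the call. After the length and GC correction Ndufs3 (0.46) and Ndufs8 (0.36) were called higher.

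The 29 supernumerary subunits of complex I, which surround the core, had 11 higher and 6 lower, beside 37.1% and 41.1% of all genes. Ndufa9, which sits near the coenzyme Q site, had the largest decrease of the complex. Its locus is chr6:126821721-126849136 on the minus strand, and its counts were 566 and 538 in NSD1B WT against 111 and 129 in NSD1B KO. The genotypes were far apart, at a log2 fold change of -2.14 ± 0.13 (adjusted p = 9.11e-20, edgeR's quasi-likelihood test). Ndufa10, a subunit of the membrane arm, had 609 and 563 counts against 284 and 214 and fell by 1.18 on the log2 scale. Ndufa7 followed with 8146 and 7667 counts against 5030 and 4746 and a log2 fold change of -0.64 ± 0.08. These decreases stayed called in every setting tried. Ndufa6, a supernumerary subunit on the matrix side, had 1816 and 1679 counts against 2853 and 2605, an increase of 0.70 ± 0.08 on the log2 scale. Ndufb2, in the distal membrane arm, had only 119 and 120 counts against 181 and 204, an increase of 0.74 ± 0.17, and part of its exons is shared with other genes on both strands. Ndufb10, also of the distal membrane arm, had 2591 and 2879 counts against 4388 and 3868 and a log2 fold change of 0.65 ± 0.08. For these 3 subunits each NSD1B KO library was above both NSD1B WT libraries.

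By family, the 10 Ndufb subunits, which lie mostly in the distal membrane arm, had a median of 0.27 on the log2 scale. They included 5 higher and 0 lower, beside 37.1% and 41.1% of all genes tested. The 13 Ndufa subunits included 3 higher and 5 lower, with a median of -0.23. The 8 Ndufs subunits included 1 higher and 3 lower, with a median of -0.23. After the length and GC correction both of these medians turned positive. Ndufa12 (0.38) and Ndufa13 (0.34) were then called higher, while Ndufa7, Ndufa9, Ndufa10, Ndufs1 and Ndufs7 stayed lower. Both Ndufc subunits were higher, Ndufc1 at 0.32 and Ndufc2 at 0.39. Ndufa4, which is named for complex I but was later assigned to complex IV, had 3455 and 3688 counts against 4748 and 4580, a log2 fold change of 0.44 ± 0.08; after the length and GC correction it was 0.24 and not called. Calls close to the fold limit were unstable: Ndufa11 (-0.36), Ndufa8 (-0.38), Ndufs5 (-0.45), Ndufs4 (0.35) and Ndufc1 (0.32) also lost theirs after that correction, where Ndufa11 stood at 0.14. Ndufa5 (0.31) and Ndufb5 (0.29) lost theirs with library size alone and without NSD1B KO replicate 1, and the lowest value with 1 library left out was 0.24 for each. Ndufa5 also lost its call, as did Ndufa11, without NSD1B WT replicate 1, and Ndufb5 without NSD1B WT replicate 2. Ndufs4, at 0.25, was not called without NSD1B KO replicate 1. The most abundant members per kb of exon, Ndufa1 (1597 CPM per kb in NSD1B WT, 1833 in NSD1B KO) and Ndufa2 (834 and 723), passed in neither direction. Ndufa1 had 4971 and 4696 counts against 5232 and 5440, a log2 fold change of 0.20. Ndufa2 had 3548 and 3347 against 3002 and 2761, a log2 fold change of -0.21. Ndufa1 was called higher, at 0.46, after the length and GC correction, and Ndufa2 lower, at -0.28, with library size alone.

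**Figure D2:**
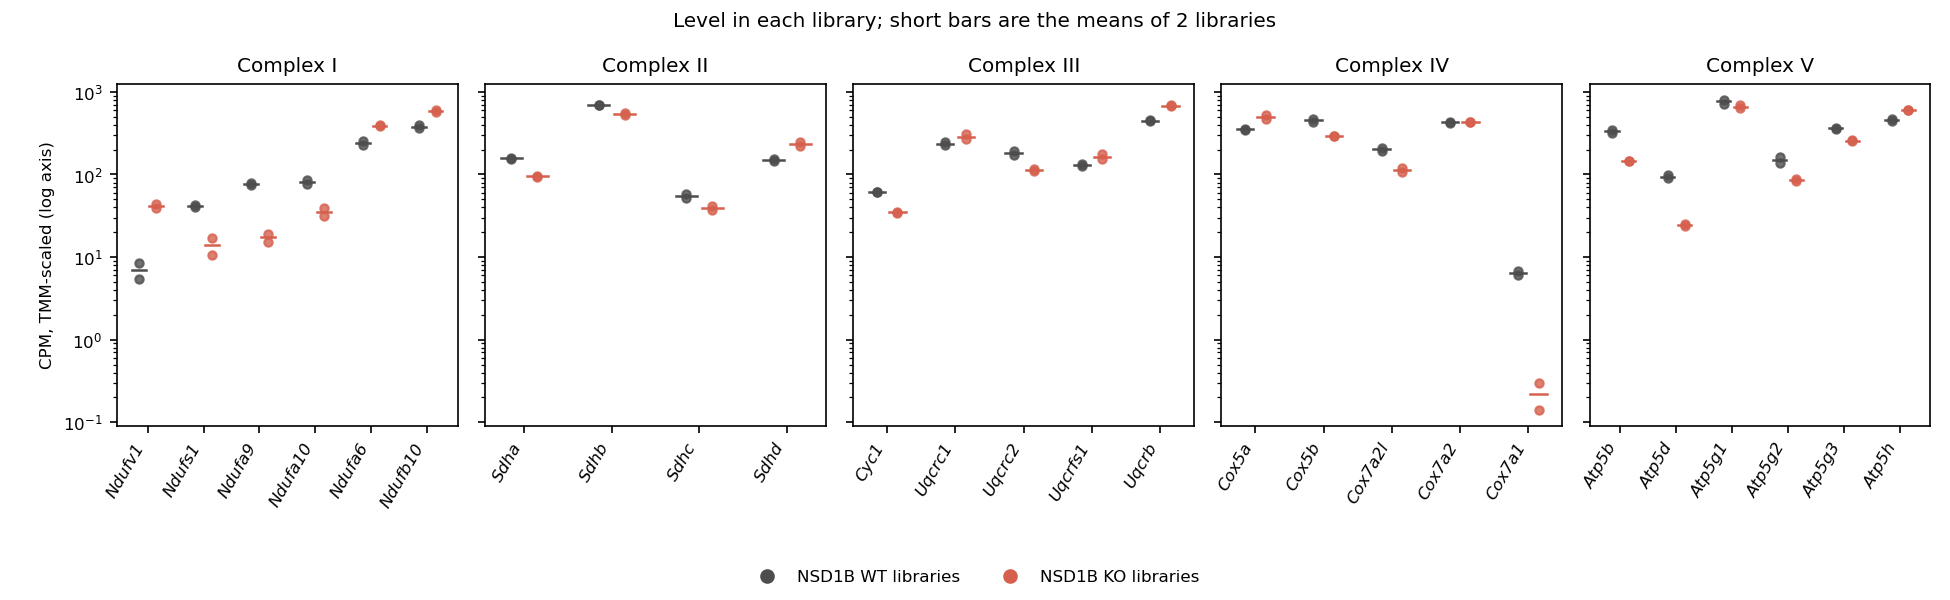
Points give the level of selected members in each library in CPM after TMM scaling, on a log axis, with NSD1B WT in grey and NSD1B KO in red, and short bars give the means of 2 libraries. The red points of Ndufv1 lie above the grey points and those of Ndufs1, Ndufa9, Atp5b and Atp5d lie below them, while Cox7a2 coincides in all 4 libraries.

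In complex III, the cytochrome bc1 complex, 3 of 9 members were higher and 4 lower, beside 37.1% and 41.1% of all genes. In neither direction were 2. The subunits that carry redox centres split. Cyc1, cytochrome c1, had 439 and 455 counts in NSD1B WT against 255 and 229 in NSD1B KO, with both NSD1B KO libraries lower and a log2 fold change of -0.83 ± 0.12 (adjusted p = 1.42e-08, edgeR's quasi-likelihood test). After the length and GC correction the value was -0.21 and the call was lost. Uqcrfs1, the Rieske iron-sulfur protein, had 913 and 976 counts against 1257 and 1038, a log2 fold change of 0.33 ± 0.09; it was 0.25 with library size alone and 0.24 without NSD1B KO replicate 1, and not called in either.

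The 2 core proteins of complex III also moved in opposite directions. Uqcrc2 had 1239 and 1390 counts against 839 and 741, a decrease of 0.68 on the log2 scale that was called in every setting, although 504 bases of its exons are shared with Pdzd9 on the opposite strand. Uqcrc1 had 1763 and 1649 counts against 2205 and 1802, a log2 fold change of 0.28 ± 0.08. That value was close to the fold limit and the call was lost with library size alone (0.20), without NSD1B WT replicate 2 (0.24) and without NSD1B KO replicate 1 (0.18). Among the small subunits, Uqcrb had 3250 and 3228 counts against 4843 and 4639, an increase of 0.60 ± 0.08 on the log2 scale called in every setting. Uqcr10 had the highest level of the complex per kb of exon in both genotypes (1152 CPM per kb in NSD1B WT, 872 in NSD1B KO). Uqcr11 was next in NSD1B WT, at 699 CPM per kb beside 512 for Uqcrb, while in NSD1B KO Uqcrb was above it, at 778 beside 548. Both Uqcr10 and Uqcr11 were lower. Uqcr10 had 5130 and 4591 counts against 3405 and 3668, a log2 fold change of -0.40 ± 0.08. Uqcr11 had 3295 and 3182 counts against 2490 and 2400, a log2 fold change of -0.35 ± 0.08. Neither call held after the length and GC correction, where Uqcr10 was at -0.07 and Uqcr11 at 0.22. The hinge protein Uqcrh (0.07) and Uqcrq (-0.01) overlapped between the genotypes.

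Complex IV, cytochrome c oxidase, had the smallest share of tested members past the call (35.7%, beside 78.2% of all genes). Of 19 members 14 were tested, and 2 were higher, 3 lower and 9 neither. Cox5a and Cox5b, the nuclear subunits next to each other on the complex, changed in opposite directions. Cox5a had 2505 and 2590 counts in NSD1B WT against 3404 and 3497 in NSD1B KO, a log2 fold change of 0.49 ± 0.08 (adjusted p = 1.91e-07, edgeR's quasi-likelihood test), which was 0.30 and still called after the length and GC correction. Cox5b had 3335 and 3188 counts against 2116 and 1955, a log2 fold change of -0.63 ± 0.08 (adjusted p = 7.62e-10, edgeR's quasi-likelihood test). The copy Cox5b-ps, with 99.2% identity over 390 bases, held 781 counts over the 4 libraries beside 10594 for Cox5b, and its counts were 275 and 265 against 81 and 160. Cox7a2l, known for joining complexes III and IV into supercomplexes, had 1500 and 1411 counts against 865 and 725 and fell by 0.82 on the log2 scale. For both Cox5b and Cox7a2l the NSD1B KO libraries lay below the NSD1B WT libraries, and the calls held in every setting.

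Complex IV is the complex with tissue isoforms, of which the widely used ones carried nearly all counts here. Cox4i1 had 3777 and 3639 counts against 3950 and 3606, a log2 fold change of 0.08, while its lung isoform Cox4i2 had no count. Cox6a1 had 4925 and 4845 counts against 4827 and 4431 (-0.02), and Cox6a2, of heart and skeletal muscle, had none. Cox8a had 2613 and 2585 counts against 3078 and 2663 (0.20), and Cox8b and Cox8c had none. A gene with no count was below 0.208 CPM in NSD1B WT and 0.215 CPM in NSD1B KO at the limit set by 3 counts over a genotype. Cox7b had 2969 and 2904 counts against 2666 and 2547 (-0.12), and the testis isoform Cox7b2 had none. Cox6b1 had 3859 and 4139 counts against 4562 and 4145 (0.18). Its testis isoform Cox6b2 had 0 and 0 counts in NSD1B WT and 13 and 11 in NSD1B KO, which is at least 8.29-fold higher in NSD1B KO. Cox7a2 had 3056 and 3113 counts against 3070 and 2917, a log2 fold change of 0.01, and the libraries of the genotypes overlapped. Cox7a1, the muscle isoform of the same subunit, had 43 and 50 counts in NSD1B WT and 1 and 2 in NSD1B KO, a ratio of NSD1B WT to NSD1B KO of 29.9 with an exact 95% counting interval of 9.91 to 147. Both isoforms that changed were rare, at a mean of 6.43 CPM for Cox7a1 in NSD1B WT and 1.72 CPM for Cox6b2 in NSD1B KO.

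Cox6a1 had the highest level of complex IV per kb of exon in both genotypes (963 CPM per kb in NSD1B WT, 947 in NSD1B KO). Cox7c was next in NSD1B WT (826 CPM per kb), and Cox6b1 in NSD1B KO (883, beside 855 for Cox7c). All of these passed in neither direction. Cox7c had 7102 and 6390 counts against 7123 and 6345, a log2 fold change of 0.05 ± 0.08. After the length and GC correction, Cox6a1 stood at 0.64 and was called higher, as were Cox4i1, Cox6b1, Cox7a2 and Cox8a, at 0.58, 0.51, 0.31 and 0.73. The small number of calls in complex IV thus held for the scalings without that correction. Cox6c had a log2 fold change of 0.01, and Cox6c2, annotated as a processed pseudogene of Cox6c, had 19 to 28 counts and 0.20 ± 0.38.

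Complex V, the ATP synthase, had 18 members of which 17 were tested, with 7 higher, 4 lower and 6 neither. Of all genes tested, 37.1% were higher and 41.1% lower. The second row of Atp5o had no count. The catalytic head, F1, is built from 5 kinds of subunit, of which 2 were higher, 2 lower and 1 neither. Atp5b, the catalytic beta subunit, lies at chr10:128083273-128090391 on the plus strand and had 2297 and 2511 counts in NSD1B WT against 1061 and 973 in NSD1B KO. All NSD1B KO values were less than those of NSD1B WT, with a log2 fold change of -1.19 ± 0.08 (adjusted p = 8.12e-18, edgeR's quasi-likelihood test). Atp5d, the delta subunit of the central stalk, at chr10:80138632-80145818 on the plus strand, had 709 and 656 counts against 182 and 162. This was the largest decrease of complex V, at -1.93 ± 0.12 (adjusted p = 4.39e-20, edgeR's quasi-likelihood test). Atp5a1, the alpha subunit that alternates with beta in the head, had 762 and 752 counts against 662 and 586 and passed in neither direction at -0.23. That result depended on the setting. Atp5a1 was called lower with library size alone (-0.305), with upper quartile scaling (-0.264) and when genes below 1 CPM in any library were dropped (-0.265). It stood at -0.269 without NSD1B KO replicate 1, and at 0.15 and not called after the length and GC correction. Atp5c1, the gamma subunit at the axis of the head, had 2377 and 2436 counts against 3190 and 2832, an increase of 0.38 ± 0.08 on the log2 scale. The epsilon subunit Atp5e had 2199 and 2165 counts against 2759 and 2555, an increase of 0.34 ± 0.08; it was 0.26 and not called with library size alone. The 3 subunits of the central stalk, gamma, delta and epsilon, therefore did not share a direction. For each of them the genotypes did not overlap, which also held for 88.1% of all genes tested.

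Subunit c, which forms the rotating ring, is encoded by 3 genes, Atp5g1, Atp5g2 and Atp5g3, whose mature proteins are the same. Their coding ends are printed to show that the genes differ at the DNA level in the stretch where the protein is shared. The last 120 coding bases before the stop codon are from GENCODE M21 transcripts (GRCm38, 5′ to 3′), and capitals mark the 30 positions at which at least 1 gene differs from another. They lie within chr11:96073107-96073530 for Atp5g1, chr15:102663017-102665061 for Atp5g2 and chr2:73908596-73909191 for Atp5g3, all on the minus strand.
Atp5g1: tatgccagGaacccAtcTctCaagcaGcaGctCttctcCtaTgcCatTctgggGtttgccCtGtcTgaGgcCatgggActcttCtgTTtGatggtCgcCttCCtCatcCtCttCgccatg
Atp5g2: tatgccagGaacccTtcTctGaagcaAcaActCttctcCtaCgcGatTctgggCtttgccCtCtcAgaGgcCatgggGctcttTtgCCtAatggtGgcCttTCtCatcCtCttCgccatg
Atp5g3: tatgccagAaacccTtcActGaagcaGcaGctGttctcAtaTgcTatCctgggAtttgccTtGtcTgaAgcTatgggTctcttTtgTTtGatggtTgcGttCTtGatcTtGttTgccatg
Over the last 225 coding bases the identity was 84.9% between Atp5g1 and Atp5g2, 80.0% between Atp5g1 and Atp5g3 and 78.7% between Atp5g2 and Atp5g3, and the longest identical run was 20 bases.

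None of the subunit c genes was higher. Atp5g1, the most abundant of them in CPM, had 5776 and 5290 counts against 4976 and 4281 and passed in neither direction at -0.21 ± 0.08. It was called lower, at -0.29, with library size alone, and at -0.27 without NSD1B KO replicate 1. A processed pseudogene with 99.8% identity over 411 bases held 1096 counts beside 20323 for Atp5g1. Atp5g2 had 1172 and 1011 counts against 642 and 560, a log2 fold change of -0.81 ± 0.09 that was -0.14 and not called after the length and GC correction. Atp5g3 had 2608 and 2609 counts against 1867 and 1705, a log2 fold change of -0.49 ± 0.08 called in every setting. The 3 genes summed to 1337 and 1219 CPM in NSD1B WT and to 1040 and 973 CPM in NSD1B KO, with both NSD1B KO libraries below.

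In the peripheral stalk, which holds the head still, 2 of 4 tested subunits were higher and 0 lower, beside 37.1% and 41.1% of all genes. Atp5h, subunit d, had 3318 and 3274 counts against 4378 and 4007, an increase of 0.40 ± 0.08 on the log2 scale. Atp5j, coupling factor 6, had 6249 and 6205 counts against 7619 and 7180, an increase of 0.30 ± 0.07; it was 0.23 and not called with library size alone, and 397 bases of its exons are shared with Gabpa on the opposite strand. Atp5pb, subunit b, was at 0.15 and the oligomycin sensitivity subunit Atp5o at 0.11, and neither passed. The stalk summed to 1826 and 1807 CPM in NSD1B WT and to 2206 and 2222 CPM in NSD1B KO, above both NSD1B WT libraries and opposite in direction to subunit c. Of the small membrane subunits, Atp5k, subunit e, had 2296 and 2374 counts against 2959 and 2800 (0.36 ± 0.08), Atp5mpl was at 0.37 and Atp5md at 0.42. Atp5j2 (-0.17) and Atp5l (-0.15) passed in neither direction. After the length and GC correction Atp5l was called lower, at -0.39. Atp5md had 2239 and 2184 counts against 2869 and 2812, and was 0.23 and not called after the length and GC correction. Stretches of its transcripts are near-identical to parts of 13 other genes with 3283 counts, beside 10104 for Atp5md. Atp5k (524 CPM per kb of exon in NSD1B WT, 672 in NSD1B KO) and Atp5h (311 and 411) had the highest levels per kb of complex V.

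The size of the change fell with the level of the member. The 6 tested members with a mean below 32 CPM had a median change, in either direction, of 2.08 on the log2 scale, and 5 of them were called, beside 79.6% of all genes at this level. Between 32 and 128 CPM there were 11 members, of which 7 were called, beside 79.9% of all genes, and all 7 were lower, among them Ndufa9, Ndufa10, Cyc1 and Atp5d. Between 128 and 256 CPM 10 of 13 members were called, 5 higher and 5 lower, with a median size of 0.38, beside 68.8% of all genes. The 35 members between 256 and 512 CPM had a median size of 0.28, with 13 higher and 5 lower, beside 67.6% of all genes called, and the 15 members above 512 CPM had a median size of 0.24, with 4 higher and 3 lower, beside 57.7%. Over all genes the median size from the lowest to the highest of these 5 levels was 1.95, 0.70, 0.42, 0.38 and 0.32. Across the 80 members, Pearson's r between the mean log2 CPM and the size of the change was -0.73 and Spearman's rho was -0.44, as a description over genes that share their libraries. The median level was 317 CPM for higher, 158 CPM for lower and 408 CPM for the other members. The scatter plot of the change against level places the members at the upper end of the range of all genes.

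**Figure D3:**
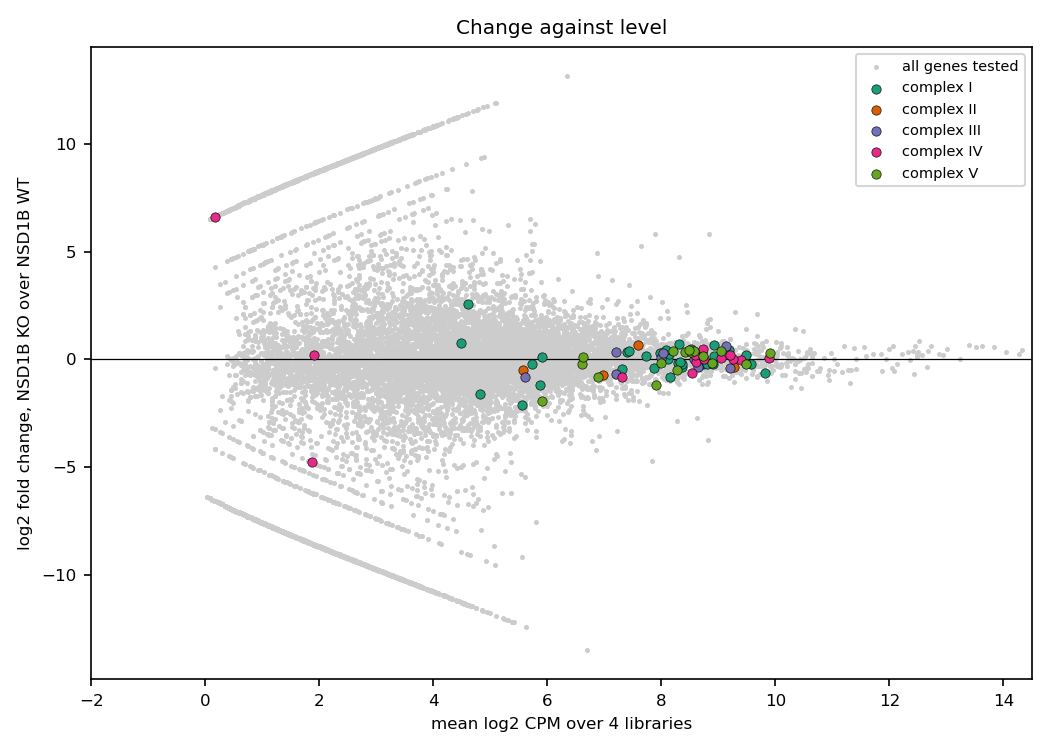
Each grey point is 1 of 11657 genes tested, by its mean log2 CPM over 4 libraries and its log2 fold change in NSD1B KO over NSD1B WT, and coloured points are the 80 tested members by complex. Most members lie near 0 at levels above 256 CPM (8 on the log2 axis), and the curved edges are genes with no count in 1 genotype.

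Of the mitochondrially encoded subunits of the same complexes all 13 were tested. Of these, 5 were higher and 0 were lower, beside 37.1% and 41.1% of all genes. Their summed level was 52249 and 58960 CPM in NSD1B WT and 69128 and 68489 CPM in NSD1B KO. Higher were mt-Nd3 (0.67 ± 0.23), mt-Nd6 (0.63 ± 0.08), mt-Nd4 (0.49 ± 0.08), mt-Nd5 (0.37 ± 0.08) and mt-Co1 (0.34 ± 0.08). Of the 5, 4 belong to complex I, which has 7 of the 13 genes, and 1 to complex IV. The counts of mt-Nd3 were low, at 57 and 68 in NSD1B WT against 94 and 97 in NSD1B KO. For mt-Nd6 the counts were 11875 and 14736 against 21520 and 18210. Levels of mt-Co2, mt-Co3 and mt-Atp6 differed more between the NSD1B KO libraries than between the genotypes, with 2023 and 4100 counts of mt-Atp6 in NSD1B KO and 2939 and 3800 in NSD1B WT.

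Assembly factors build the complexes but are not part of them. Of 52 listed, 47 were tested, and 34 of these were called, 18 higher and 16 lower, beside 78.2% of all genes called, 37.1% higher and 41.1% lower. No count in either library of 1 genotype was found for 8 of the 47, beside 18.9% of all genes. Over all tested genes, 347 (2.98%) at 0 in both NSD1B KO libraries, and 206 (1.77%) at 0 in both NSD1B WT libraries, had at least 100 counts in a library of the other genotype. The folds against 0 of assembly factors and coenzyme Q genes stand beside these counts, and no cause of the zeros was tested. For complex I, Foxred1 had 0 and 0 counts in NSD1B WT and 64 and 69 in NSD1B KO (at least 46.1-fold higher), and Ndufaf5 had 9 and 12 against 124 and 81 (3.32). Ndufaf6 had 76 and 89 counts in NSD1B WT and 0 and 0 in NSD1B KO (at least 52.9-fold lower), and Acad9 had 74 and 94 against 13 and 9 (-2.87). For complex II, whose subunits Sdha and Sdhb were lower, Sdhaf1, which serves the iron-sulfur subunit, had 199 and 227 counts against 91 and 77 (-1.29). Sdhaf4, which serves the flavoprotein, had 589 and 680 counts against 1127 and 955 (0.77), and Sdhaf3 was at 0.50. For complex III, Bcs1l, the chaperone that inserts the Rieske protein, had 170 and 176 counts in NSD1B WT and 0 and 0 in NSD1B KO, at least 111-fold lower. Lyrm7, which stabilises the Rieske protein before insertion, had 75 and 90 counts against 325 and 275 (1.91), and Ttc19 26 and 30 against 315 and 268 (3.43), while Uqcc3 fell by 0.74. The Rieske protein Uqcrfs1 itself was at 0.33.

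For complex IV, 5 assembly factors were higher and 8 lower of 18 tested. Cox18 had 0 and 0 counts in NSD1B WT and 82 and 77 in NSD1B KO (at least 55.0-fold higher), and Cmc2 had 67 and 75 against 348 and 294 (2.23). Cox19 had 179 and 209 counts in NSD1B WT and 0 and 0 in NSD1B KO (at least 124-fold lower), and Coa7 had 153 and 155 against 0 and 0 (at least 98.9-fold lower). For complex V, Tmem70, which helps to form the c ring, had 469 and 461 counts against 1483 and 1257 (1.61). Atpaf1, which serves the beta subunit, had 80 and 92 against 228 and 179 (1.29), where Atp5b itself was lower, and Atpif1, the inhibitor of ATP hydrolysis, was at -0.34.

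**Figure D4:**
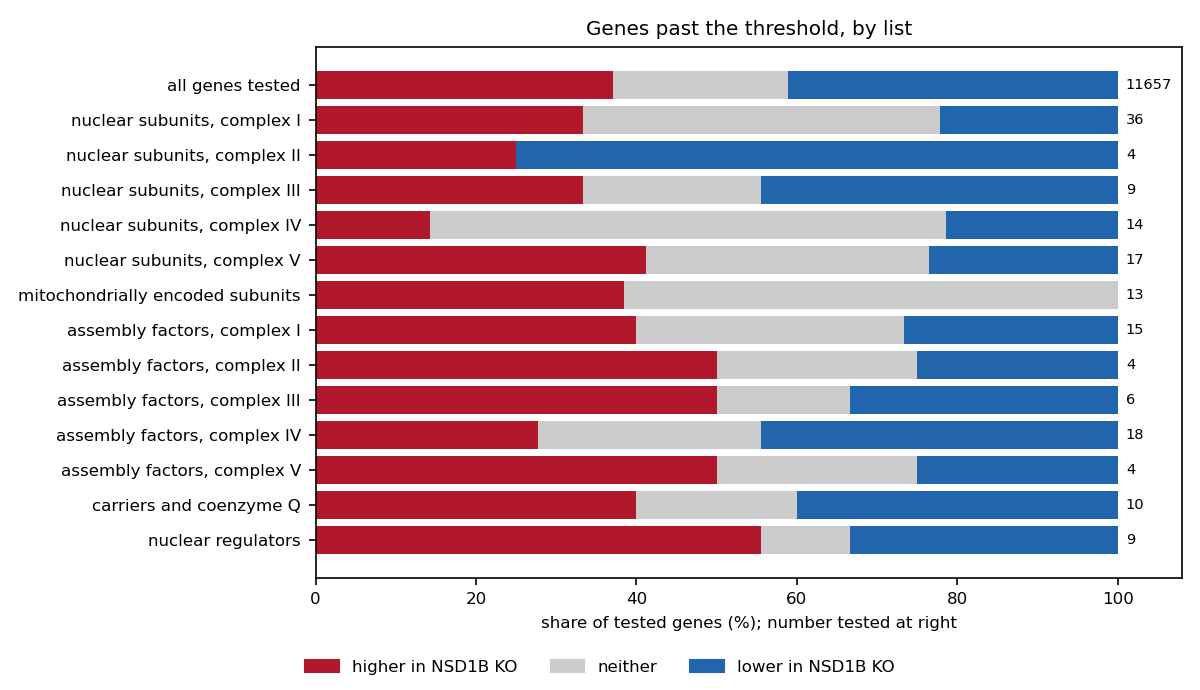
Each bar divides the tested genes of a list into higher in NSD1B KO, neither and lower in NSD1B KO, as percent, with the number tested at the right. Nuclear complex IV subunits have the widest grey share among the nuclear complexes (9 of 14), and the mitochondrially encoded subunits have no lower share.

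Of the genes for the mobile carriers, Cycs, cytochrome c, had 3963 and 3711 counts against 6072 and 4952, a log2 fold change of 0.57 ± 0.08. The coenzyme Q genes moved both ways, and with Cycs 4 of 10 tested were higher and 4 lower, beside 37.1% and 41.1% of all genes. Coq8a had 552 and 578 counts in NSD1B WT and 0 and 0 in NSD1B KO, at least 363-fold lower, and its paralog Coq8b had 0 and 0 against 23 and 34, at least 19.9-fold higher. Coq6 had 17 and 12 counts against 247 and 266 (4.19), and Pdss2 had 49 and 48 against 0 and 0 (at least 31.1-fold lower).

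Among nuclear regulators of the chain and of mitochondrial DNA, 5 of 9 tested were higher and 3 lower, beside 37.1% and 41.1% of all genes. Nrf1, the factor whose motif was searched above, had 278 and 276 counts against 110 and 117, with both NSD1B KO libraries lower and a log2 fold change of -1.23 ± 0.16 (adjusted p = 9.65e-10, edgeR's quasi-likelihood test). Gabpb1, the partner of the ETS factor Gabpa, had 91 and 77 counts against 24 and 11 (-2.21), and Gabpa had 329 and 338 against 337 and 298 (-0.02). Lrpprc, which stabilises mitochondrial RNA, had 190 and 187 counts against 132 and 106 (-0.61). Of the higher genes, Tfam, which packages mitochondrial DNA, had 549 and 466 counts against 1013 and 805 (0.89). Tfb2m, a mitochondrial transcription factor, had 97 and 124 counts against 349 and 325 (1.66). Polrmt, the mitochondrial RNA polymerase, had 2 and 1 counts in NSD1B WT and 75 and 40 in NSD1B KO, a ratio of 39.8 with an exact 95% counting interval of 13.3 to 196. The coactivator genes Ppargc1a and Pprc1 had no count and Ppargc1b had 1.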

How the data were processed

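The deposited files hold raw read counts per gene, 1 file per library, with rows for reads on no feature (44.3 to 44.6% of the total), ambiguous reads (2.21 to 2.41%) and reads with no unique position (11.2 to 13.2%), which were left out. Per the study's methods the authors mapped paired-end reads to mm10 with Bowtie2 and computed FPKM with Cufflinks; the sources used here name neither the program behind the deposited counts nor its strand setting. Gene identifiers matched GENCODE M21 for 55141 of 55401 rows (99.5%).

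Counts were filtered with filterByExpr (minimum count 10, minimum total 15), scaled by TMM and tested with edgeR 4.0.16's quasi-likelihood test (R 4.3.3), without covariates, with Benjamini-Hochberg adjustment over 11657 genes. Genes were called at adjusted p below 0.05 and fold change above 1.2, the limits of the study's methods, here with an adjusted p. Libraries of a genotype varied with a coefficient of variation of 0.0735. The chi-square per degree of freedom between libraries was 3.02 in NSD1B WT and 3.90 in NSD1B KO, so they differed by more than sampling noise. On simulated counts 107 of 108 changed genes with a mean of 10 CPM or more were called in the right direction. The simulation changed only a small share of the genes, each by more than the median change of the members, at a common dispersion. It therefore does not measure recovery of small changes, of genes below 10 CPM, or where most genes differ as here. Intervals and the limit of 3 counts cover counting error only.

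Alternatives were DESeq2 1.42.0 size factors and Wald test, limma-voom 3.58.1, library size alone, upper quartile scaling, other count filters, removal of the length and GC trend by loess (span 0.5), a replicate block, no fold limit and leaving out each library. Stretches shared with other transcripts were searched with BLAST 2.17.0 (at least 95% identity over 150 bases); 25 members had at least 1 outside their own locus and 30 had exons that overlap another gene. Members and lists were chosen with earlier results of these data known. Values are given for all complex II members, in each other complex the 2 most abundant per kb of exon (mean over genotypes) and up to 3 largest increases and decreases, the core subunits, the subunit c genes and the tissue isoforms, and in each other list up to 2 increases and 2 decreases; other genes were named after their values were seen. Some items are not reported here individually.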

Additional observations from a re-analysis of the deposited data

How the results depend on the processing

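With 2 libraries per genotype the spread rests on 2 residual degrees of freedom shared over genes, and leaving out a library leaves a lone sample that is assumed to vary like the others. The count of higher members ran from 21 to 26 and that of lower members from 21 to 25 when 1 library was left out, and Nsd1 from -0.77 to -0.66. The count of all genes past the call was 2855 higher and 2991 lower with a filter of 1 CPM in all 4 libraries. The same-numbered libraries shared only a number. Across the tested genes, the deviations of NSD1B WT replicate 1 and NSD1B KO replicate 1 from their genotype means had a correlation of 0.0645. The replicate block gave 25 higher and 22 lower members and changed no member's call.

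The complex medians were small and moved with the setting; the cause was not tested. With library size alone they were -0.033 for complex I, -0.50 for complex II, -0.048 for complex IV and 0.035 for complex V. With upper quartile scaling complex IV was at -0.0071 and complex V at 0.076, and with the 1 CPM filter at -0.0084 and 0.075. Complex V was at 0.13 with DESeq2 and 0.098 with limma-voom. After the length and GC correction the medians were 0.22, -0.22, 0.15, 0.30 and 0.15 for complexes I to V, and with the replicate block added 0.22, -0.23, 0.15, 0.30 and 0.14. Leaving out 1 library gave -0.49 to -0.34 for complex II, 0.0056 to 0.070 for complex IV and -0.10 to 0.19 for complex V, whose lowest value came without NSD1B KO replicate 2.

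Some members changed sign, including Uqcr11 and Ndufa11, which were called lower before the length and GC correction. Cox7a2 was at -0.067 with library size alone, -0.026 with upper quartile scaling and -0.027 with the 1 CPM filter, and Cox7c at -0.029 with library size alone. After the length and GC correction Atp5a1 was at 0.15, Cox6a1 at 0.64, Cox7c at -0.18, Ndufa2 at 0.15 and Uqcr11 at 0.22, and with the replicate block added at 0.15, 0.64, -0.19, 0.14 and 0.22. Leaving out 1 library gave -0.041 to 0.035 for Cox6a1 and -0.017 to 0.18 for Cox7c. That correction lost 12 of the 47 member calls, library size alone lost 7, and DESeq2 and limma-voom lost 0.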
